A study of Mus musculus with 8 samples.

Results

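The killer lectin-like receptor (Klr) genes outside the Ly49 family were described in sorted mouse spleen CD8+ T cells, together with Clec2i, a gene for a Clec2 ligand. They were chosen by gene symbol, and 10 of the 29426 symbols in the count table were members: Klrk1, Klrd1, Klrc1, Klrc2, Klrc3, Klre1, Klrg1, Klrb1c, Klrb1f and Clec2i. RNA was sequenced from 8 libraries in 4 groups of 2: mCre-MP, WT-MP, mCre-TN and WT-TN. The first term is the genotype label and the second the subset label, which the labels do not spell out (the design text writes VM for MP). Cells were sorted on CD44 and CD122, surface proteins that are high on memory-phenotype CD8+ T cells. The title of the series joins miR-29 with Cre, but the allele of the mCre mice, the strain, the promoter that drives Cre and the number of mice per library are not stated. Spleens were from adult or neonatal mice, and the age behind each library is not stated either; no treatment is named for any group.

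Klr receptors are C-type lectin-like proteins best known from natural killer (NK) cells, and CD8+ T cells gain several of them when they take on a memory phenotype. NKG2D (Klrk1) is an activating receptor for stress-induced ligands. CD94 (Klrd1) pairs with an NKG2 chain, and the pairs bind the non-classical MHC molecule Qa-1: NKG2A (Klrc1) gives an inhibitory receptor, whereas NKG2C (Klrc2) and NKG2E (Klrc3) give activating ones.

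Total counts per library ran from 13479586 to 30057658, and replicates of each group differed by more than sampling noise (chi-square per degree of freedom of 4.13 to 6.12). The 6 T cell markers, among them Cd3e and Cd8a, summed to 4795 to 5229 CPM (the count scaled to the library's total) in every library, and Cd4 had 3 to 10 counts per group. Cd44 and Il2rb, which encode the sorted proteins CD44 and CD122, were called higher in MP than in TN in mCre (log2 fold changes 3.41 and 2.72) and in WT (3.27 and 2.79). The labels do not say that the 2 libraries of a group came from separate animals, so the p-values measure the spread between libraries, which may be technical.

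All 10 genes lie on chromosome 6 of mouse build GRCm38. Klre1, Klrd1, Klrk1, Klrc3, Klrc2 and Klrc1 follow each other within 101 kb, at chr6:129577905-129678973. With Klrb1c, Clec2i and Klrb1f, 9 of the members lie within 900 kb, and Klrg1 lies apart at chr6:122270596-122282882. The 3 NKG2 genes resemble each other: of the 75-base exon stretches of Klrc1, 25.0% also occur in Klrc2 or Klrc3, and the shares are 11.3% for Klrc2 and 23.5% for Klrc3. Klrb1c shares 13.2% of its stretches with other genes, mostly with Gm44511, which overlaps it on the same strand. How reads matching several genes were counted is not given, so the counts of Klrc1, Klrc2, Klrc3 and Klrb1c are uncertain to that extent; Clec2i shares 0.875% with Clec2h, and the other 5 members share none.

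RefSeq lists promoter windows, reaching from 250 bases before to 50 bases after a gene's start, for 8 members (11 windows; Klrd1 and Klrg1 are not among them). They were searched on both strands for the cores of 4 motif families whose factors are known from this receptor programme. The Runx core TGTGGT, written ACCACA on the other strand, occurred in 6 of the 8 genes (Klrk1, Klrc1, Klrc2, Klrc3, Klre1 and Klrb1c) or, counted by window, in 7 of their 11 windows, against 16.8% of all 32851 windows of that length. The Klrc2 and Klrc3 windows are near-identical and the Klrc2 windows overlap, so these are not separate cases. The T-box core GGTGTGA occurred in 0 of the 11 windows and in 3.98% of all windows. The Ets core GGAAGT occurred in 2 of the 11 windows, those of Klrb1c and Klrb1f (23.8% of all windows), and the Stat palindrome TTCNNNGAA in 1, that of Klrb1f (8.30%); the searched motifs did not overlap each other in these windows. A match describes letters and not a bound site. The 5 stretches printed here, the 150 bases before the start in GRCm38.p6 read 5′ to 3′ on the minus strand, show where the Runx core falls, in capitals (in Klrb1c the earlier capitals are the Ets core).
Klrk1, chr6:129623865-129624014: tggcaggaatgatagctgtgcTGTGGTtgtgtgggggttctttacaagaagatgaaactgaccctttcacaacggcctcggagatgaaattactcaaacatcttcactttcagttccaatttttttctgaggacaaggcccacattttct
Klrc1, chr6:129678974-129679123: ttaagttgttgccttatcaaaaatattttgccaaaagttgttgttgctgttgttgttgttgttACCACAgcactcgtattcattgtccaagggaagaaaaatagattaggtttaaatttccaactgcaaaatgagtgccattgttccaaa
Klrc2, chr6:129660557-129660706: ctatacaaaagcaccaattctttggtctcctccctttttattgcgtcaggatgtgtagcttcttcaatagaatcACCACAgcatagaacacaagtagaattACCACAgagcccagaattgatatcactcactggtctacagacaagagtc
Klrc3, chr6:129643289-129643438: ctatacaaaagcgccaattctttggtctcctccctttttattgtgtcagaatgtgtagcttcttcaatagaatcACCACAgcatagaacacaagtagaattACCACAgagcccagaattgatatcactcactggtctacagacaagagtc
Klrb1c, chr6:128788642-128788791: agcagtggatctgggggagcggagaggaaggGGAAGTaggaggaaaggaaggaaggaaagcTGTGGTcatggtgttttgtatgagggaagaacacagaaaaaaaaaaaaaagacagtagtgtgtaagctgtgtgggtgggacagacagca
The Klrc2 and Klrc3 stretches were identical at 147 of 150 bases, and both held the core at the same 2 distances from the start, -76 and -49.

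**Figure D1:**
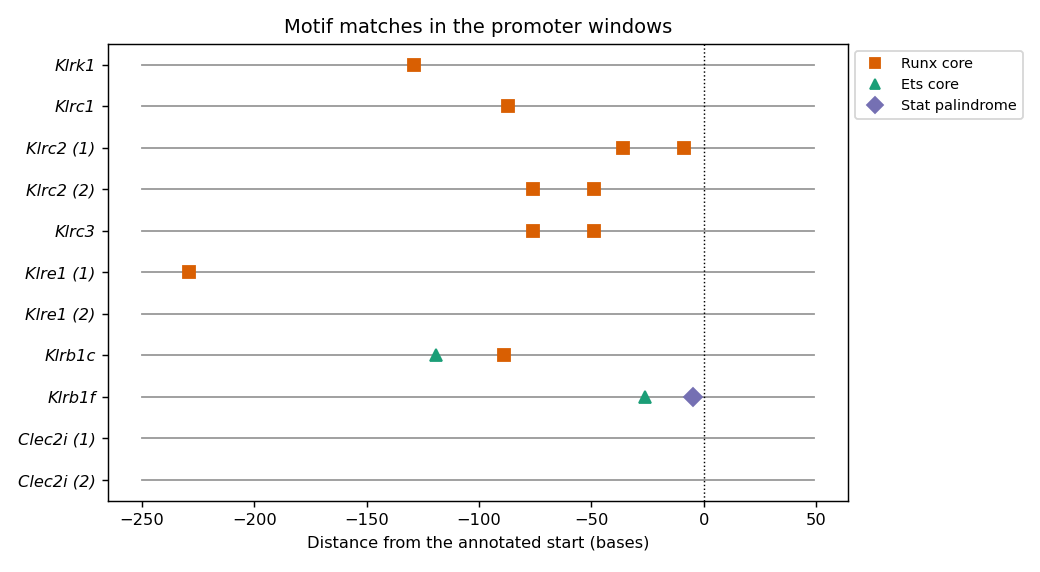
Motif matches in the 11 RefSeq promoter windows of 8 members, by distance in bases from the annotated start (dotted line); squares mark the Runx core, triangles the Ets core and diamonds the Stat palindrome. Runx cores stand at -76 and -49 in Klrc3 and in the second Klrc2 window, and neither Clec2i window has a match.

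Since the series names miR-29, the 3′ UTRs of the members were searched for the 7 bases that pair with its seed. The 3 mature members of that family, from RefSeq, share the seed at positions 2 to 8, shown in capitals.
mmu-miR-29a-3p: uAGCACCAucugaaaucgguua
mmu-miR-29b-3p: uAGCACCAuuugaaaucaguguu
mmu-miR-29c-3p: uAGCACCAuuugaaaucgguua
In the longest annotated 3′ UTR, the pairing sequence TGGTGCT occurred in Klrk1 and in no other member, against 1952 of the 11654 tested genes with an annotated 3′ UTR (16.75%). In Klrk1 it begins at base 938 of a 3′ UTR of 2463 bases, and the surrounding letters are shown with the pairing bases in capitals.
Klrk1 site: gtcagaaaggTGGTGCTggaaggagtt
A match is a description of these letters; its use by the microRNA was not measured.

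The first question was how the members differ between the 2 subsets. In mCre cells, 9 of the 10 members were called higher in MP than in TN and 1, Clec2i, was called lower; in WT cells 9 were called higher and 0 lower (edgeR's quasi-likelihood test, adjusted p under 0.05 over 12313 genes). Among all tested genes, 17% were called higher and 15.5% lower in mCre, and 16.2% and 15.6% in WT. The members' median log2 fold change was 5.17 in mCre (4.75 with the 2 genes absent from mCre-TN at their lower bound) and 5.66 in WT (4.41 with 2 at their bound), against medians of 0.00 over all genes in each genotype. These counts carry a limit, since 7 members passed the filter on low counts (about 0.486 CPM in 2 libraries) only through the MP libraries and so had to differ; Klrk1, Klrd1 and Clec2i passed it in the TN libraries as well. In bulk RNA, a change in the share of cells that hold a transcript and a change in the amount per cell cannot be told apart.

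Klrk1, the gene of the activating receptor NKG2D, was at 132 and 129 CPM in the mCre-MP libraries and at 177 and 189.5 CPM in WT-MP. It was at 9.08 and 8.86 CPM in mCre-TN and at 12.2 and 9.15 CPM in WT-TN. Every MP library thus lay far above every TN library, and within MP the mCre and WT libraries did not overlap. The log2 fold change of MP over TN was 3.89 (SE 0.082, adjusted p = 1.95e-17 by edgeR) in mCre and 4.14 (SE 0.085, adjusted p = 1.38e-17) in WT.

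Klrd1, which encodes the CD94 partner chain of the NKG2 receptors, was the receptor gene with a high level in both subsets. Its levels were 250.6 and 252 CPM in mCre-MP and 280.4 and 310 CPM in WT-MP. In TN cells they were 186 and 182.5 CPM in mCre and 189 and 224.5 CPM in WT. The MP and TN libraries of each genotype did not overlap, but the step was small: the log2 fold change was 0.48 (SE 0.070, adjusted p = 6.86e-05 by edgeR) in mCre and 0.53 (SE 0.070, adjusted p = 2.99e-05) in WT.

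The NKG2 chains that pair with CD94 were, by contrast, nearly absent from TN cells. Klrc1, for the inhibitory chain NKG2A, was at 54.55 and 57.4 CPM in mCre-MP and at 90.4 and 79.3 CPM in WT-MP. Its reads numbered 1 and 3 in the mCre-TN libraries, and 0 and 1 in WT-TN. In mCre the log2 fold change was 9.36 (adjusted p = 5.19e-17 by edgeR), and 8.47 or 10.52 without mCre-TN replicate 1 or 2. With 1 read over both WT-TN libraries, the WT ratio of 2730 had an interval of 489 to 108000, at a confidence of 95%; this and the other intervals and lower bounds cover counting error only, as reads are not independent molecules. Klrc1 was therefore a transcript of the MP libraries of both genotypes, with the WT-MP values above the mCre-MP values.

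Klrc2, for the activating chain NKG2C, was at 13.95 and 15.9 CPM in mCre-MP and at 21.5 and 25.05 CPM in WT-MP. Its TN reads numbered 14 and 10 in mCre and 4 and 1 in WT. The log2 fold change was 4.96 (adjusted p = 2.17e-12 by edgeR) in mCre and 7.18 (adjusted p = 4.07e-13 by edgeR) in WT. The WT value was 8.64 without WT-TN replicate 1 and 6.29 without WT-TN replicate 2. Within each genotype the MP and TN libraries stood apart. Scaled to depth, TN levels were 0.466 and 0.518 CPM in mCre and 0.297 and 0.0538 CPM in WT. That genotype difference was not called (adjusted p = 0.169 by edgeR). Klrc3, for the activating chain NKG2E, was lower throughout, at 1.96 and 1.83 CPM in mCre-MP and 3.25 and 3.11 CPM in WT-MP. It had 1 read in each mCre-TN library, which gives a ratio of 46.6 (interval 12.5 to 391), and 0 reads in both WT-TN libraries, so that WT-MP was at least 34-fold higher, taking 3 counts over the group as the limit.

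Klre1 encodes a receptor that, in rodent NK cells, pairs with the products of Klri1 (inhibitory) or Klri2 (activating). It was at 2.94 and 4.23 CPM in mCre-MP and at 9.41 and 12.3 CPM in WT-MP. TN reads numbered 0 and 1 in mCre and 0 and 2 in WT, giving MP over TN ratios of 182 (32.1 to 7220) and 173 (47.7 to 1430). The MP libraries of the 2 genotypes did not overlap, and the lower WT-MP value was above the higher mCre-MP value. The partner gene Klri2 was called higher in MP in both genotypes. It was at 15.7 and 18.4 CPM in mCre-MP and at 16.4 and 14.9 CPM in WT-MP, a range in which the genotypes overlapped, and it had 1 and 0 reads in mCre-TN against 3 and 2 in WT-TN. Klri1 was also called higher in MP, with log2 fold changes of 2.92 in mCre and 2.32 in WT. Both Klri genes passed the filter on low counts only through MP libraries, so their calls carry the limit given for the members.

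The remaining receptors were rare. Klrg1, an inhibitory receptor for E-cadherin that marks terminally differentiated effector cells, had 11 and 50 reads in mCre-MP and 14 and 13 reads in WT-MP. In TN cells it had 0 reads in both mCre libraries and 1 read in each WT library. The second mCre-MP library, at 2.035 CPM, stood above the other 3 MP libraries, which lay between 0.594 and 0.599 CPM. MP was at least 23.4-fold higher than TN in mCre, a bound that is 9.86-fold without mCre-MP replicate 2 and 33.5-fold without mCre-MP replicate 1. The WT ratio was 9.56 (2.40 to 83). The WT call (adjusted p = 0.0225 by edgeR) was lost with DESeq2 (adjusted p = 0.0645) and without any of the 4 WT libraries in turn (adjusted p of 0.0625 to 0.137), so that it rests on all of them.

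Klrb1c, whose product NKR-P1C carries the NK1.1 epitope in some strains, was at 1.91 and 2.12 CPM in mCre-MP and at 2.05 and 2.74 CPM in WT-MP, with 0 reads in all 4 TN libraries. MP was at least 33.4-fold higher in mCre and at least 25.5-fold higher in WT. Klrb1f, for the activating receptor NKR-P1F, was at 1.42 and 2.24 CPM in mCre-MP and 2.05 and 1.69 CPM in WT-MP. Its TN levels were 0.233 and 0.104 CPM in mCre and 0.742 and 0.484 CPM in WT. No MP library overlapped a TN library for either gene. For Klrb1f the log2 fold change was 3.35 (SE 0.50, adjusted p = 2.96e-05 by edgeR) in mCre (4.11 without mCre-TN replicate 1) and 1.66 (SE 0.44, adjusted p = 0.00689) in WT. The WT call was lost without WT-MP replicate 1 (0.0511) or WT-TN replicate 2 (0.0849).

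Clec2i encodes Clr-g, a ligand of NKR-P1F, and was the only member not higher in MP. It was at 60.2 and 70.5 CPM in mCre-MP and 84.3 and 84.7 CPM in WT-MP. In TN cells it was at 95.7 and 99.15 CPM in mCre and at 91.5 and 86.2 CPM in WT. The mCre-MP libraries thus lay below all 6 others. In mCre, MP fell by 0.54 (log2; SE 0.065, adjusted p = 2.64e-06 by edgeR), and in WT the log2 fold change was -0.05 (SE 0.066, adjusted p = 0.583).

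**Figure D2:**
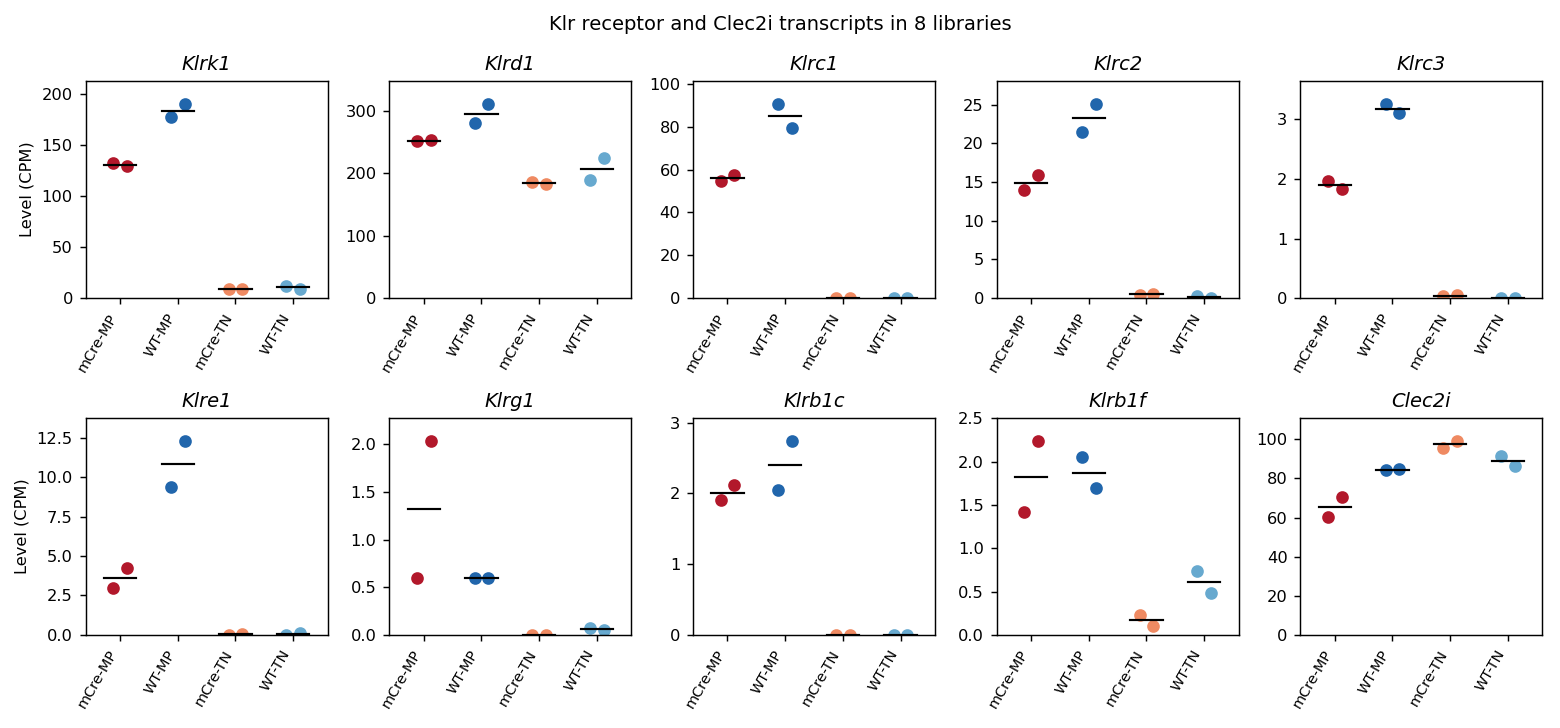
Levels of the 10 members in CPM, with a panel and a scale of its own for each gene; points are single libraries (2 per group) and bars are group means, in the order mCre-MP, WT-MP, mCre-TN, WT-TN. Klrk1 and the Klrc genes are high in MP, Klrd1 and Clec2i are present in all groups, and a single mCre-MP library at 2.035 CPM carries the Klrg1 mean.

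**Figure D3:**
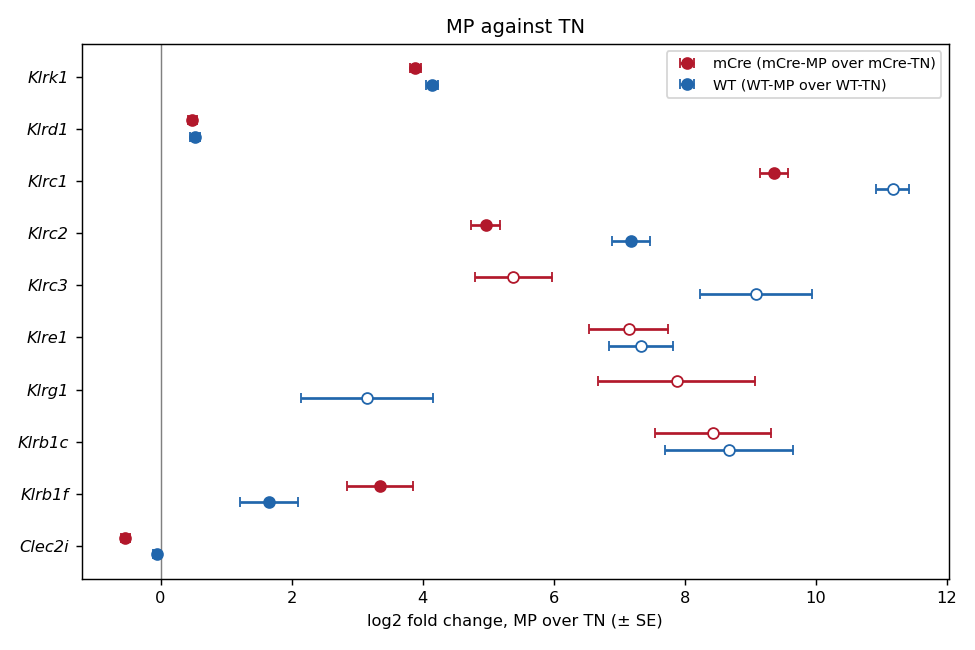
Log2 fold change of MP over TN for each member in mCre and in WT (edgeR). Bars are the SE taken from the F statistic, which comes out too small where a TN group has few reads. Open symbols mark fits against a TN group with 0 to 3 reads, whose position depends on the model and is no bound; Klrd1 lies at 0.48 and 0.53, and Clec2i at -0.54 in mCre and -0.05 in WT.

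Levels of different genes were compared per kilobase of exon. In mCre-MP, Klrd1 led at 196 CPM per kb, followed by Klrc1 at 28.2, Clec2i at 21.0 and Klrk1 at 18.2. Klrc3 and Klrc2 came next at 2.58 and 2.57, and Klre1, Klrg1, Klrb1f and Klrb1c were at 1.03 to 0.679 CPM per kb. WT-MP gave Klrd1 230, Klrc1 42.8, Clec2i 27.2 and Klrk1 25.5 CPM per kb, with Klrc3, Klrc2 and Klre1 at 4.32, 4.00 and 3.11 and the last 3 under 1. Among neighbours in this order, the ranges over libraries overlapped for Klrc3 and Klrc2 in both genotypes, for the 4 lowest genes of mCre-MP, and for Klrb1f and Klrb1c of WT-MP; Clec2i and Klrk1 did not overlap in either. In TN cells Klrd1 (144 CPM per kb in mCre, 161 in WT) and Clec2i (31.3 and 28.6) were far above Klrk1 (1.25 and 1.48). The exon lengths of Klrk1 (7183 bases) and Klrc2 (5812 bases) include transcripts with retained introns, which lowers their values on this scale.

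**Figure D4:**
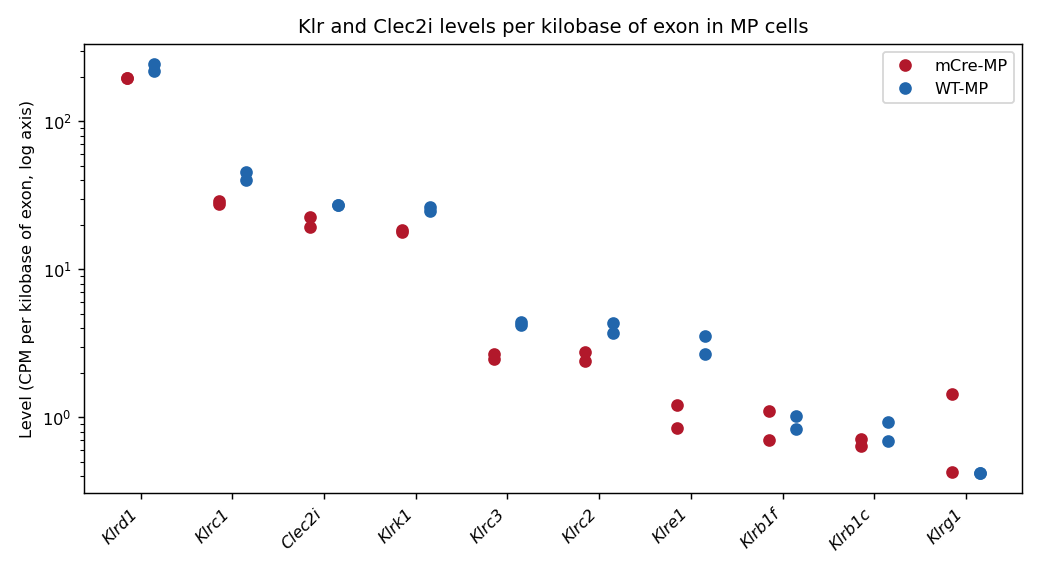
Levels of the members in MP cells in CPM per kilobase of exon, on a log axis, ordered by the WT-MP mean; points are single libraries. Klrd1 stands highest at 196 (mCre-MP) and 230 (WT-MP), and the genes fall into a group at 18.2 to 42.8 and a group under 5 CPM per kb.

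The next question was whether the members differed between the genotypes. In MP cells, 5 of the 10 members were called lower in mCre than in WT and 0 were called higher, against 1.97% of all tested genes called lower and 2.08% called higher. The 5 were Klrk1, Klrc1, Klrc2, Klre1 and Clec2i. The median log2 fold change of the members was -0.43, against 0.00 over all genes, and 9 of the 10 had a negative value. The members' sum was 520 and 538 CPM in mCre-MP and 671 and 709 CPM in WT-MP.

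For Klrk1, the mean was 130.4 ± 2.12 CPM in mCre-MP and 183 ± 8.91 CPM in WT-MP (± SD over 2 libraries, as in all such values). The mCre group fell by 0.49 (log2; SE 0.062, adjusted p = 9.1e-05 by edgeR). The NKG2A gene Klrc1 averaged 56.0 ± 2.01 CPM in mCre-MP and 84.8 ± 7.91 CPM in WT-MP, and fell by 0.60 (SE 0.081, adjusted p = 0.000173). Klrc2 averaged 14.9 ± 1.39 CPM in mCre-MP and 23.3 ± 2.53 CPM in WT-MP, and fell by 0.63 (SE 0.14, adjusted p = 0.0105). The inhibitory and the activating CD94 partner thus fell by amounts that differed by less than either standard error. The Klrc2 call was lost without mCre-MP replicate 1 (adjusted p = 0.108) or WT-MP replicate 2 (0.194). Klre1 had the largest called change of the members, to 3.59 ± 0.913 CPM in mCre-MP against 10.9 ± 2.04 CPM in WT-MP, and fell by 1.58 (SE 0.24, adjusted p = 0.000618). The ligand gene Clec2i averaged 65.3 ± 7.34 CPM in mCre-MP and 84.5 ± 0.297 CPM in WT-MP, and fell by 0.36 (SE 0.066, adjusted p = 0.00272).

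The other 5 members were not called in MP. Klrd1 averaged 251.5 ± 1.25 CPM in mCre-MP and 295 ± 20.9 CPM in WT-MP, libraries that did not overlap, with a log2 fold change of -0.23 (SE 0.069, adjusted p = 0.0862 by edgeR). It passed the test in 5 of 15 alternatives, among them the fit of the 2 MP groups alone (adjusted p = 0.0184) and the fit without a filter on low counts (0.00108). Klrc3 had a log2 fold change of -0.74 (SE 0.30, adjusted p = 0.201) on 36 and 45 reads in mCre-MP against 76 and 68 in WT-MP. Klrb1c and Klrb1f were at -0.24 (SE 0.34, adjusted p = 0.786) and -0.01 (SE 0.35, adjusted p = 0.992), with overlapping libraries. Klrg1 was at 1.19 (SE 0.53, adjusted p = 0.254), and at 0.00 without mCre-MP replicate 2.

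In TN cells 0 of the 10 members were called between mCre and WT by edgeR, against 1.55% of all genes called higher and 1.92% called lower. At an unadjusted p under 0.05, 1 member was higher and 2 were lower, against 17% of all genes in either direction, and DESeq2 also called 0. The fold change could be read for the 5 members with more than 3 reads in both TN groups. Klrk1 was at -0.24 (SE 0.11, adjusted p = 0.302), Klrd1 at -0.18 (SE 0.070, adjusted p = 0.185) and Clec2i at 0.12 (SE 0.065, adjusted p = 0.371). Klrc2 was at 1.59 (SE 0.60, adjusted p = 0.169) on 24 reads in mCre-TN against 5 in WT-TN; without WT-TN replicate 1 the value was 3.03 and without WT-TN replicate 2 it was 0.69. Klrb1f was at -1.71 (SE 0.62, adjusted p = 0.149) on 9 reads in mCre-TN against 19 in WT-TN, and at -2.46 without mCre-TN replicate 1. Libraries of the 2 genotypes did not overlap for Klrd1, Klrc2, Klrb1f and Clec2i, and the Klrk1 values also did not, with mCre-TN at 9.08 and 8.86 CPM below 9.15 CPM in the lower WT-TN library. Of all tested genes, 45.8% did not overlap in this comparison of 2 against 2 libraries, so nothing is read from this separation. Klrd1 was called in TN without a filter (adjusted p = 0.0361) and without WT-TN replicate 1 (0.0106).

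Whether the subset difference itself differed between genotypes was tested with the interaction. Of the 10 members 0 were called higher and 1 lower, where 0.0487% of all genes were called higher and 0.0812% lower. The gene called was Clec2i, whose MP over TN difference of -0.54 in mCre lay below that of -0.05 in WT (difference of the log2 values -0.48, SE 0.093, adjusted p = 0.0448 by edgeR). The call was lost without any of 6 of the 8 libraries in turn, with an adjusted p of up to 0.254, and kept in 8 of 14 alternatives; the log2 value stayed between -0.62 and -0.39. For Klrk1 the interaction was -0.25 (SE 0.13, adjusted p = 0.862), for Klrd1 -0.05 (SE 0.098, adjusted p = 1), for Klrc2 -2.22 (SE 0.61, adjusted p = 0.327) and for Klrb1f 1.70 (SE 0.72, adjusted p = 0.777). The lower Klrk1 and Klrc2 levels of mCre in MP were therefore not shown to differ from the genotype difference in TN.

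With both subsets together, 4 libraries against 4, 0 members were called higher in mCre and 4 lower, against 5.06% and 5.97% of all genes. Klrk1 fell by 0.43 (SE 0.059, adjusted p = 9.18e-05 by edgeR) and Klrd1 fell by 0.21 (SE 0.047, adjusted p = 0.00878). Klrc1 fell by 0.59 (SE 0.083, adjusted p = 6.28e-05) and Klre1 fell by 1.57 (SE 0.24, adjusted p = 0.000122). The CD94 gene Klrd1 thus passed here and not within MP or TN. For Klrc1 the call was lost with DESeq2 (adjusted p = 0.733), and reads of this gene and of Klre1 came almost wholly from MP libraries.

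**Figure D5:**
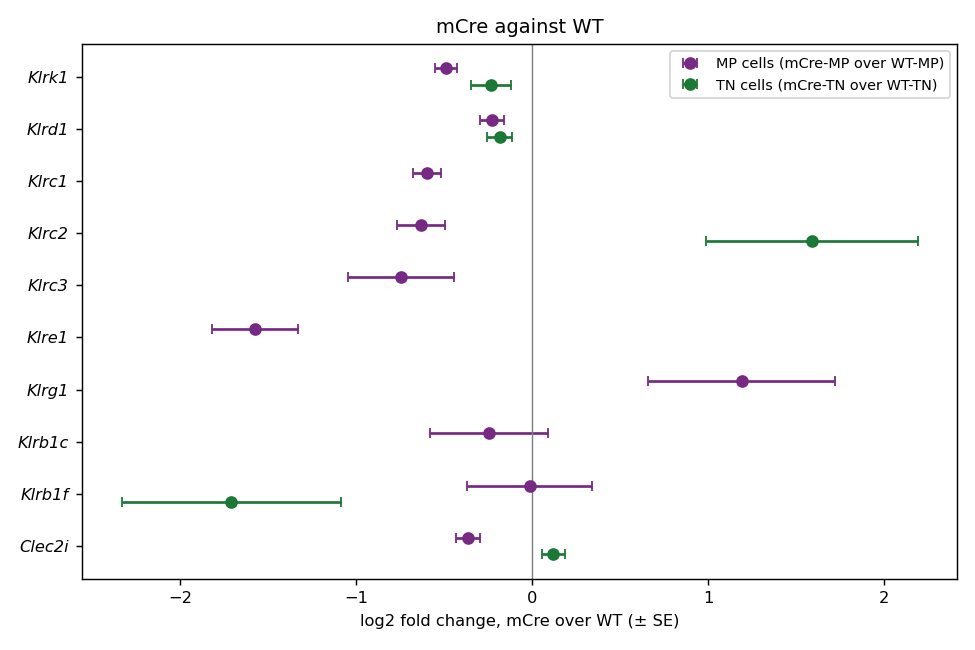
Log2 fold change of mCre over WT for each member in MP and in TN cells (edgeR), with bars for the SE taken from the F statistic. TN values are drawn for the 5 members with more than 3 reads in both TN groups. In MP, Klre1 lies at -1.58 and Klrk1, Klrc1, Klrc2 and Clec2i between -0.63 and -0.36; no TN value was called.

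The balance between the inhibitory and the activating chain was described from read shares in MP. Klrc2 made up 21.0% ± 0.92 of the reads of Klrc1 and Klrc2 in mCre-MP and 21.6% ± 3.4 in WT-MP, and the mCre-MP values of 20.4% and 21.7% lay between the WT-MP values of 19.2% and 24.0%. The exact (Clopper-Pearson) 95% intervals of single libraries were wider than the gap between the group means, for example 18.2% to 22.7% in mCre-MP replicate 1. Klrc1, Klrc2 and Klrc3 together made up 21.9% and 22.9% of their sum with Klrd1 in mCre-MP and 29.1% and 25.7% in WT-MP, without overlap. Per kilobase of exon these shares were 14.5% in mCre-MP and 18.2% in WT-MP. In these libraries the NKG2 chains were a smaller part of the NKG2 and CD94 reads in mCre-MP than in WT-MP. The share was not tested between genotypes, so no genotype difference is read from this separation. The split between Klrc1 and Klrc2 did not differ beyond the spread of the WT-MP libraries.

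Markers of other cells that carry these receptors were counted beside these results. Of 9 NK cell and innate lymphoid markers, 7 were tested and all 7 were called higher in MP in both genotypes (Eomes among them is also expressed by memory-phenotype CD8+ T cells). Among all tested genes, 17% were called higher in mCre and 16.2% in WT. Ncr1 and Cd244a passed the filter on low counts only through MP libraries and so had to differ. The 9 summed to 238 and 218 CPM in mCre-MP and 250.3 and 264 CPM in WT-MP. In TN they summed to 41.3 and 49.2 CPM in mCre and to 60.2 and 52.4 CPM in WT. Most of these sums was Eomes; the other 8 markers summed to 33.1 and 37.6 CPM in mCre-MP, 37.8 and 40.3 CPM in WT-MP, and 9.09 to 10.6 CPM in the TN libraries. The defining marker Ncr1, for NKp46, had 3 and 15 reads in mCre-MP, 5 and 15 in WT-MP and 0 in each TN library. Between 0 and 2 of the 9 markers were at 0 in an MP library, and 2 or 3 in a TN library. None of the 7 was called between mCre and WT in MP by edgeR. In MP, Gzma had a log2 fold change of 0.54 in mCre over WT, and the other tested markers had negative values. Those were -0.66 for Tyrobp, -0.63 for Fcer1g, -0.545 for Cd244a, -0.24 for Itga2, -0.18 for Eomes and -0.11 for Ncr1. Across subsets 1 was called, Gzma, which was higher in mCre (log2 fold change 0.66, adjusted p = 0.00951 by edgeR). The factor gene Zbtb16 (PLZF), which defines NKT and other innate-like T cells, had 7 and 5 reads in mCre-MP and 36 and 37 in WT-MP. It fell by 2.49 (log2, SE 0.51, adjusted p = 0.00809 by edgeR). Zbtb16 passed the filter on low counts only through the WT-MP libraries (1.54 and 1.69 CPM), so this call carries the limit given for the members above. The 11 Ly49 genes summed to 9.81 and 8.26 CPM in mCre-MP and to 41.7 and 48.0 CPM in WT-MP. The part of NK or innate-like cells in the subset and genotype differences of the members was not tested. B cell, myeloid and dendritic marker sums lay between 14.2 and 26.6 CPM in every library. Within the myeloid list, Csf1r fell in mCre in TN (log2 fold change -1.45, adjusted p = 0.0462 by edgeR) and across subsets (-1.32, adjusted p = 0.0021), where Adgre1 fell as well (-1.16, adjusted p = 0.0301). Csf1r was at 3.54 and 2.81 CPM in mCre-MP and 9.45 and 4.94 CPM in WT-MP, and in TN at 2.76 and 2.02 CPM in mCre and 8.09 and 5.27 CPM in WT. The other tested myeloid markers were not called across subsets and went both ways: Lyz2 was at -0.63, Cd68 at 0.12 and Itgam at 0.30. Csf1r and Adgre1 were thus lower in mCre, as were the called members. The 7 myeloid markers on the list summed to 19.2 and 18.9 CPM in mCre-MP and to 26.6 and 19.8 CPM in WT-MP. In TN their sums were 17.3 and 17.8 CPM in mCre and 25.6 and 20.45 CPM in WT, so that the mCre libraries lay lower in both subsets. The part of myeloid cells in the members' differences was not tested. The 4 CD4 and regulatory T cell markers summed to 18.8 to 22.96 CPM in MP and 3.56 to 4.62 CPM in TN. Zbtb7b made up most of the MP sums, at 14.8 to 20.95 CPM, and Cd4 was at 0.366 CPM or less in every library. Zbtb7b and Ctla4 were called higher in MP in both genotypes, Ctla4 by 2.45 in mCre (adjusted p = 0.000454 by edgeR) and 1.97 in WT (adjusted p = 0.0094). Foxp3 was lower in MP than in TN in WT (log2 fold change -1.48, adjusted p = 0.0127 by edgeR) and was not called in mCre (-0.515, adjusted p = 0.355). Sox13, the gamma-delta T cell marker found in the table, was at 0.0545 to 0.489 CPM in MP and 1.48 to 2.53 CPM in TN.

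The adaptors through which these receptors signal were called in both directions. Of 24 tested adaptor and signalling genes, 10 rose and 6 fell in MP in mCre, and 9 rose and 7 fell in WT, with median log2 fold changes of 0.04 and 0.05. Among all tested genes, 17% rose and 15.5% fell in mCre, and 16.2% rose and 15.6% fell in WT. Hcst, which encodes the NKG2D adaptor DAP10, was at 103 and 102 CPM in mCre-MP and 106 and 112 CPM in WT-MP. Its TN levels were 84.5 and 72.9 CPM in mCre and 73.4 and 82.5 CPM in WT. It was called higher in MP by 0.41 (SE 0.066, adjusted p = 9.19e-05 by edgeR) in mCre and by 0.50 (SE 0.068, adjusted p = 1.45e-05) in WT. Tyrobp, for the adaptor DAP12 of NKG2C and NKG2E, was scarce, at 2.22 ± 0.436 CPM in mCre-MP and 3.54 ± 0.0417 CPM in WT-MP, and rose by 0.88 (adjusted p = 0.0412) in mCre and 1.23 (adjusted p = 0.00549) in WT. Between genotypes, 0 of the 24 were called in TN and 1 in MP, the adaptor gene Crk, which fell by 0.20 (adjusted p = 0.0409 by edgeR). Of all tested genes, 1.55% were called higher and 1.92% lower in TN, and 2.08% and 1.97% in MP. The counts of the ligand, other Klr and transcription factor lists below are to be read beside the same shares.

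Ligand genes were also measured in these cells. Of 8 tested, counting Clec2i, 4 were called higher and 1 lower in MP in mCre, and 3 and 0 in WT. H2-T23, whose product Qa-1 binds CD94 with an NKG2 chain, was at 490 and 483 CPM in mCre-MP and at 366.5 and 370 CPM in WT-MP. It was called higher in mCre-MP by 0.40 (SE 0.056, adjusted p = 0.00022 by edgeR), opposite in direction to Klrc1 and Klrc2, and the libraries did not overlap. Cdh1, for the KLRG1 ligand E-cadherin, was at 35.7 and 33.0 CPM in mCre-MP and at 46.3 and 49.9 CPM in WT-MP, and fell by 0.49 in mCre (SE 0.097, adjusted p = 0.00574). In TN it had 29 and 9 reads in mCre and 30 and 46 in WT, and fell by 1.64 (SE 0.27, adjusted p = 0.00145). H2-K1, a classical MHC gene, was the other ligand-list gene called in TN, and fell by 0.25 in mCre (adjusted p = 0.00827 by edgeR). The NKG2D ligand gene Ulbp1 rose in MP by 0.32 in mCre (adjusted p = 0.0292) and 0.41 in WT (adjusted p = 0.00719).

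Other Klr and Clec2 genes numbered 19 on the list, of which 12 were in the table and 5 were tested. In MP against TN 3 were called higher in mCre and 4 in WT, and 0 lower. Klri1, Klri2 and Cd69 were called in both genotypes and Clec2d (0.29, adjusted p = 0.00297 by edgeR) in WT. Since Klri1 and Klri2 passed the filter on low counts only through MP libraries, these counts carry the limit given for the members. Cd69, an activation marker encoded in the same gene complex, was the 1 of 5 called between genotypes in MP, and rose by 0.40 in mCre (adjusted p = 0.000156).

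Transcription factors known from this receptor programme were counted last. All 20 were tested. In MP against TN 8 rose and 9 fell in mCre, and 11 rose and 8 fell in WT. Among those that rose in both genotypes, Zeb2 and Zbtb16 did not pass the filter on low counts in the TN libraries, so their calls carry the limit given for the members. Tbx21 (T-bet), which drives effector and memory programmes, averaged 134 ± 12.4 CPM in mCre-MP and 153 ± 1.02 CPM in WT-MP, and 10.4 ± 1.62 CPM in mCre-TN and 9.01 ± 1.94 CPM in WT-TN. Its log2 fold changes were 3.70 in mCre and 4.13 in WT, beside 3.89 and 4.14 for Klrk1. Eomes, a related T-box factor, rose by 2.50 in mCre and 2.25 in WT. Between genotypes, Runx3 (0.29, adjusted p = 0.00355 by edgeR) and Ikzf2 (0.57, adjusted p = 0.00153) rose in mCre-TN. In MP, Tox rose by 0.33 (adjusted p = 0.0114 by edgeR). Ikzf2 (-0.79, adjusted p = 6.86e-05), Id3 (-0.30, adjusted p = 0.0331) and Ets1 (-0.20, adjusted p = 0.017) fell by the same test. Zbtb16 fell as well, a gene that passed the filter only through WT-MP. Tbx21 and Eomes were not called between genotypes in either subset.

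Genes with the most similar profile were sought among 8431 tested genes of moderate or high level, by the root mean square difference of centred log2 CPM over the 8 libraries. Nearest to Klrk1 were Aqp9 (0.172), Tbx21 (0.210) and Cxcr3 (0.211). Nearest to Klrd1 were Bsg (0.042), Rps12 (0.065) and Mypop (0.067). Since the Klrk1 profile is mainly a contrast of 2 subsets and the Klrd1 profile is nearly flat, these neighbours describe the shape over the same 8 libraries and nothing more.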

How the data were processed

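RNA of 8 libraries was measured. The authors deposited unnormalised counts of reads for each gene symbol. Trim Galore, HISAT2, featureCounts and build mm10 are named in the submitters' processing notes; their versions, the annotation, the strand setting and the handling of reads with several matches are not given. The labels' protocols name a kit that keeps strand.

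Counts were tested in edgeR 4.0.16 (R 4.3.3) by its quasi-likelihood test (TMM scaling, robust dispersion, filterByExpr with a minimum count of 10), with all 8 libraries in a fit of 4 group means; an additive model with subset gave the comparison across subsets. P-values are two-sided and adjusted by Benjamini-Hochberg over the 12313 genes tested. The SE is the absolute log2 fold change divided by the square root of the test's F statistic. It can come out too small where a group has few reads. CPM is the count scaled to the library's total, and n is 2 per group. With 0 reads, the limit is 3 counts over the group. Annotation came from GENCODE M21, and promoters and microRNAs from RefSeq (GRCm38.p6). Figures used matplotlib 3.10.9. The procedure was tested on simulated data.

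The members and gene lists (other Klr and Clec2 genes, ligands, adaptors, transcription factors, markers) were chosen with earlier results of these data known. All 10 members are accounted for, genes of the other lists are given by their counts, with examples among those called. Replicate numbers are in the titles only. Same-numbered libraries had correlations of their deviations of 0.109 between WT-MP and WT-TN and 0.077 between mCre-MP and mCre-TN. Pairs across genotypes were at -0.045 to -0.014. The numbers were not taken to pair samples. A pairing of MP with TN within a genotype was not modelled, as the replicate block was shared by both genotypes. Alternatives were DESeq2 1.42.0, other scaling and filters, a replicate block, fits of 2 groups and leaving out each library.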

Additional observations from a re-analysis of the deposited data

Results flagged for a closer look

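The MP over TN difference of Clec2i, the gene of the NKR-P1F ligand Clr-g, differed between genotypes by the interaction test, with a log2 value of -0.48 in mCre relative to WT (adjusted p = 0.0448 by edgeR). The mCre-MP libraries were at 60.2 and 70.5 CPM, WT-MP at 84.3 and 84.7, mCre-TN at 95.7 and 99.15, and WT-TN at 91.5 and 86.2.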

How the results depend on the processing

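Of the fold changes of members under the alternatives, 698 kept their direction and their side of the threshold, 16 lost the call, 9 gained it and 6 changed sign; none of the 6 was called. Klrc2 across subsets was 0.11 with DESeq2. Leaving out each library, Klrb1f between genotypes in MP ran from -0.41 to 0.25, Klrg1 across subsets from -0.32 to 1.42, and the Klrd1 interaction from -0.18 to 0.06. The number of members called between mCre and WT in TN was 1 with no filter on low counts and 0 to 1 leaving out each library, and for the interaction it was 0 to 1. Per kilobase of exon, Klrc2 was 8.34% of Klrc1 and Klrc2 in mCre-MP and 8.62% in WT-MP, and the 3 Klrc genes were 14.5% and 18.2% of their sum with Klrd1. The causes were not tested, apart from exon length in the last case.

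With the replicate block, 6 members were called between genotypes in MP, with Klrd1 in addition (adjusted p = 0.0275); the block changed no other call of a member. With no filter, genes called numbered 783 in place of 427 in TN, 888 in place of 498 in MP and 81 in place of 16 for the interaction, where DESeq2 gave 26. Leaving out each library gave as few as 204 in TN, 195 in MP and 855 in place of 1358 across subsets, and 9 to 32 for the interaction. With no filter, 19137 genes were tested. Members with 0 to 3 reads in a group are limited by depth.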
